A study of Homo sapiens with 7 samples.

Results

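Desmosomes are junctions that rivet neighbouring epithelial or heart muscle cells together by tying the intermediate filaments of one cell to those of the next. Cadherins of the desmocollin and desmoglein kinds span the gap between the cells. Their tails bind plakoglobin (JUP) and the plakophilins (PKP genes), and desmoplakin (DSP) links this plaque to keratin or vimentin filaments. PERP is a membrane protein of desmosomes that helps hold skin and other epithelia together. In simple epithelia such as the kidney tubule, DSC2 and DSG2 are the usual cadherin pair, while DSC3 and PKP1 belong mainly to stratified epithelia.

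The desmosome genes described here are DSC2, DSC3, DSG2, DSP, JUP, PKP1, PKP2, PKP3, PKP4 and PERP, 10 of the 32425 gene symbols listed. They were taken by symbol, and each had 1 entry. The family was chosen by the measured TPM of DSC2, which was far higher in both Lat-M pairs than in PA, so its differences from PA are a description, and comparisons of the family with PA carry no p-values here. Of the 10 genes, 8 reached a mean of 1 TPM over all libraries and were tested, DSC2 only through its level in the Lat-M libraries. DSC3 and PKP1 stayed near 0 and were not tested.

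RNA sequencing covered 7 libraries made from 769-P cells, a human line grown from a kidney cancer of the clear cell type and kept here in serum-containing medium. There were 2 libraries of Lat-M2, 2 of Lat-M1 and 3 of PA. Lat-M stands for latent metastatic cells in the labels, PA is not expanded there, and the labels say neither how the Lat-M cells were obtained nor what the first Lat-M number means. No gene was targeted and no treatment is named for any group, and it is not stated whether libraries of a group came from separate cultures, so spread and p-values measure only the difference between these libraries, which may be technical.

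Expression is given as TPM, the abundance of transcripts corrected for their length and for the size of the library, so levels of different genes can be compared. The depth behind each value is unknown, since no read total survives in this unit. Between 16136 and 16872 genes reached 1 TPM in a library. Of the renal markers, PAX8 stood at 65.6 to 87.9 TPM, whereas CA9 was at most 0.156 TPM. Markers of heart muscle summed to at most 0.0422 TPM and those of endothelium to at most 0.0255 TPM. Of the leukocyte markers, PTPRC was at most 0.0121 TPM, while CD68 stood at 39.7 to 41.8 TPM in Lat-M2, 14.1 to 15.5 TPM in Lat-M1 and 45.6 to 48.2 TPM in PA. Of the squamous markers, KRT5 and TP63 did not exceed 0.118 TPM in any library, while SFN, which other epithelia also express, was at 189 to 274 TPM and KRT10 at 18.3 to 31.7 TPM. The fibroblast list was 3.11 to 4.08 TPM in Lat-M2, 20.0282 to 21.7 TPM in Lat-M1 and 1.41 to 1.74 TPM in PA, mostly COL1A1, with PDGFRB at 0.185 to 0.974 TPM and DCN, LUM and COL3A1 at or near 0. The part of CD68 and of the fibroblast list in the differences below was not tested.

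Sequences just upstream of 4 members are shown because their transcripts differed most between the groups (DSC2, JUP and DSP) or because the gene neighbours DSC2 and was listed at or near 0 (DSC3). Each is the 250 bases before the most upstream start that RefSeq lists (GRCh38.p14), given in the direction of the gene; the submitters worked on another build, hg19, so these positions are those of RefSeq. Capitals mark any of 4 motifs on either strand: the E-box CAGGTG bound by SNAI repressors, the GC box GGGCGG, the AP-1 site TGANTCA and the grainyhead site AACCGGTT. Overlapping copies run together.
DSC2, chr18:31102422-31102671, minus strand: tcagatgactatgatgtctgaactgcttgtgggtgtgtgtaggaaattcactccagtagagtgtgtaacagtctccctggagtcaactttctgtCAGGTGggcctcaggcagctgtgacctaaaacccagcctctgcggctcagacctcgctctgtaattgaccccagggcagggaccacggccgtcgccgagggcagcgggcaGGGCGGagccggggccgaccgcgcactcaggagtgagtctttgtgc
DSC3, chr18:31042743-31042992, minus strand: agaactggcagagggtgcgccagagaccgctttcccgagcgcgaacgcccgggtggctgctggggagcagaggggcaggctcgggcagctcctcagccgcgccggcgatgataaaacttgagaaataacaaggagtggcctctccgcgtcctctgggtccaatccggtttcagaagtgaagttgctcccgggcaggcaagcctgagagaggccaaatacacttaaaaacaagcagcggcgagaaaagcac
JUP, chr17:41786712-41786961, minus strand: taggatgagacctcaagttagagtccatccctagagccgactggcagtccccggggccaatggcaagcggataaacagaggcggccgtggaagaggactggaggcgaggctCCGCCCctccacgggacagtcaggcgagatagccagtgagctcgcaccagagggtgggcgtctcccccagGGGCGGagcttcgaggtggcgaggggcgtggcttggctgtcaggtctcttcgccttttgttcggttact
DSP, chr6:7541421-7541670, plus strand: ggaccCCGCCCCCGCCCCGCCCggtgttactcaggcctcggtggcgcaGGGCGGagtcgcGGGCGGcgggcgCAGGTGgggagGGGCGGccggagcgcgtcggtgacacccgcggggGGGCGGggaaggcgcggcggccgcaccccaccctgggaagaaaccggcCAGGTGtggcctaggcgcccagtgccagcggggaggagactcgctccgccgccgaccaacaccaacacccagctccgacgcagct

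The DSC2 window held 1 E-box, beginning 156 bases before the start, and 1 GC box, 46 bases before it. The DSP window held 2 E-boxes, 178 and 85 bases before the start, and 7 GC boxes. The JUP window held 2 GC boxes and no E-box, and the DSC3 window held none of the 4 motifs. RefSeq lists a second start for 2 of these genes: the second JUP window held 2 E-boxes, 54 and 43 bases before its start, and no GC box, and the second DSC2 window held 2 GC boxes and no E-box. None of the 4 printed windows held an AP-1 or grainyhead site. Among 35116 RefSeq windows of that length, 17.5% held the E-box, 42.6% the GC box, 6.57% the AP-1 site and 0.117% the grainyhead site. The motifs are letters in a window and say nothing of whether a factor was bound.

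DSC2 (ENSG00000134755.10), a desmosomal cadherin, was the member that differed most from PA. It stood at 10.7 and 9.84 TPM in Lat-M2, 34.9 and 37.5 TPM in Lat-M1, and 0.412, 0.465 and 0.289 TPM in PA. All 3 groups were separate, with Lat-M1 highest and PA below 1 TPM in every library. The group means were 26.4-fold higher in Lat-M2 than in PA and 93.2-fold higher in Lat-M1 than in PA. Both folds divide by a PA mean of 0.389 TPM at unknown depth, so their size is uncertain. On the log2(TPM + 1) scale, which understates changes of genes near 0, the difference was 3.02 ± 0.096 for Lat-M2 against PA (SE; n = 2 and 3) and 4.74 ± 0.096 for Lat-M1 against PA (n = 2 and 3). By this difference DSC2 ranked 9 of 16385 tested genes in Lat-M2 against PA and 7 in Lat-M1 against PA. With 0.1 added to TPM in place of 1, the log2 difference was 4.42 in Lat-M2 against PA and 6.23 in Lat-M1 against PA. The size of the difference thus depends on how values near 0 are treated. In bulk RNA, fewer cells of a kind and less RNA per cell cannot be told apart.

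DSG2 (ENSG00000046604.8), the desmoglein of simple epithelia, was abundant in every library. Its level was 210.3 and 188 TPM in Lat-M2, 197 and 206 TPM in Lat-M1, and 150.1, 140.5 and 152 TPM in PA. The Lat-M libraries all lay above PA, by 1.35-fold in Lat-M2 and 1.37-fold in Lat-M1. The 2 Lat-M pairs overlapped. DSC3 was listed at 0 in all Lat-M2 and PA libraries and at 0.0133 and 0.0139 TPM in Lat-M1. The other desmocollin and desmogleins, DSC1, DSG1, DSG3 and DSG4, had no entry among the gene symbols listed, so their levels are unknown. CDSN, corneodesmosin of cornified skin, was at most 0.0805 TPM.

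Among the cadherins, DSC2 took a different share of the transcripts in each group, a ratio that does not depend on how libraries are scaled. It made up 4.84% and 4.97% of the summed TPM of DSC2, DSC3 and DSG2 in Lat-M2, 15.02% and 15.4% in Lat-M1, and 0.274%, 0.330% and 0.190% in PA. There were 19.4 ± 0.398 DSG2 transcripts per DSC2 transcript in Lat-M2, 5.57 ± 0.125 in Lat-M1 and 398 ± 116 in PA (mean ± SD; n = 2, 2 and 3). DSG2 remained the major transcript of these listed desmosomal cadherins in all 7 libraries.

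**Figure D1:**
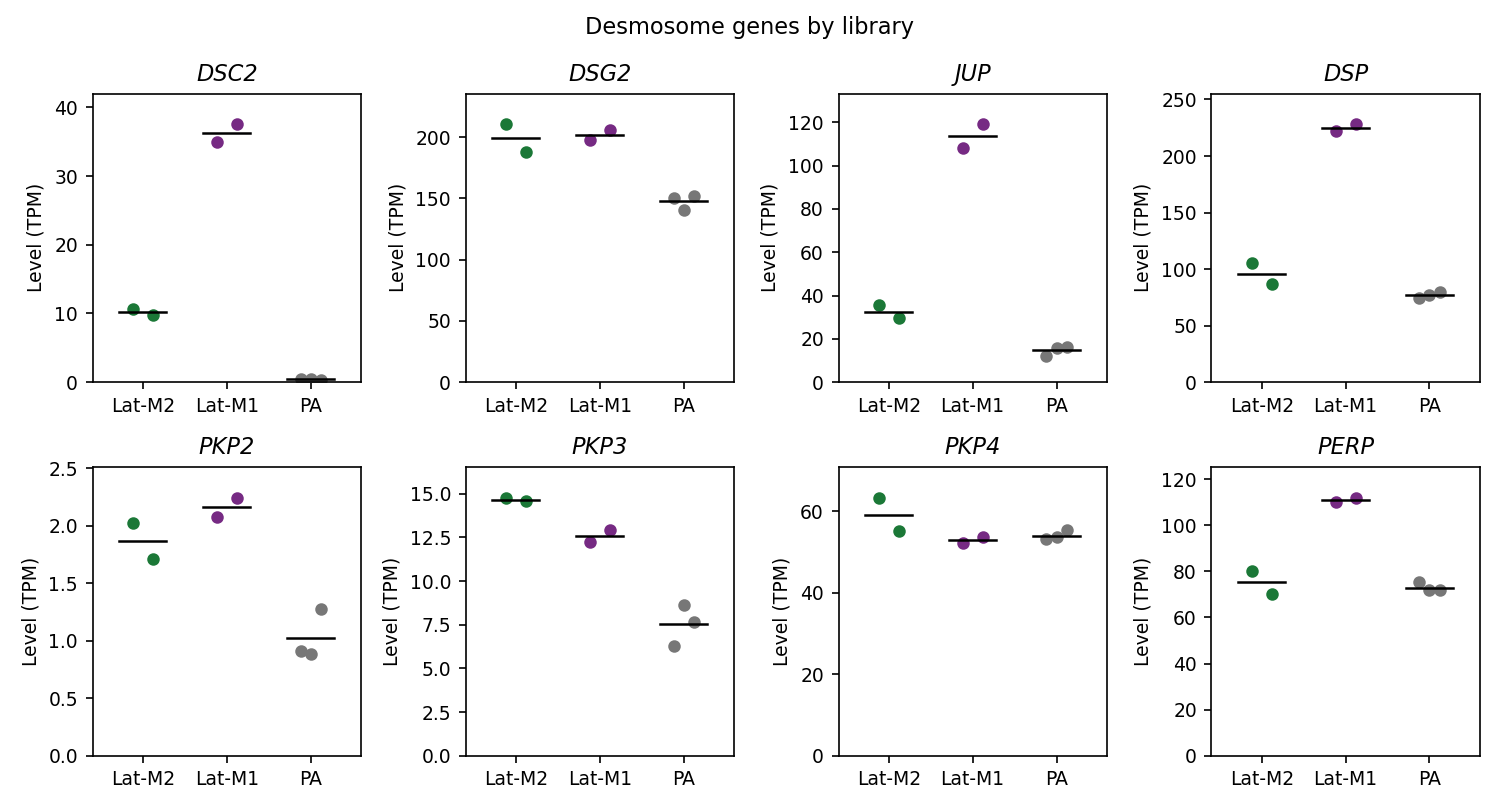
Level of the 8 tested desmosome genes in each library (TPM, linear axes from 0). Points are libraries and horizontal lines group means, with n = 2 for Lat-M2, n = 2 for Lat-M1 and n = 3 for PA. DSC2, JUP, DSP and PERP peak in Lat-M1, DSG2 and PKP2 are higher in Lat-M2 and Lat-M1 than in PA, and PKP4 differs little between the groups.

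JUP (ENSG00000173801.12) encodes plakoglobin, the arm-repeat protein that joins cadherin tails to desmoplakin and can also sit in adherens junctions. It stood at 35.5 and 29.6 TPM in Lat-M2, 108 and 119 TPM in Lat-M1, and 12.2, 15.7 and 16.04 TPM in PA. The 3 groups did not overlap and had the same order as for DSC2. Means were 2.22-fold higher in Lat-M2 than in PA and 7.73-fold higher in Lat-M1 than in PA. The log2 fold change was 1.10 ± 0.13 in Lat-M2 against PA (SE) and 2.88 ± 0.13 in Lat-M1 against PA. CTNNB1 encodes beta-catenin, the relative of plakoglobin in adherens junctions, and stood at 187 and 167 TPM in Lat-M2, 160.2 and 163 TPM in Lat-M1, and 196, 181 and 193 TPM in PA. JUP as a percentage of CTNNB1 was 18.4 ± 0.894% in Lat-M2, 70.1 ± 3.86% in Lat-M1 and 7.75 ± 1.31% in PA (mean ± SD; n = 2, 2 and 3).

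DSP (ENSG00000096696.9), the plakin that anchors filaments to the plaque, set Lat-M1 apart more than Lat-M2. It stood at 105 and 86.6 TPM in Lat-M2, 222 and 228 TPM in Lat-M1, and 74.1, 76.8 and 79.5 TPM in PA. Lat-M1 lay far above the other groups, and the lower Lat-M2 library was close to the highest PA library. Means were 1.25-fold higher in Lat-M2 than in PA and 2.93-fold higher in Lat-M1 than in PA. Relative to the desmosomal cadherins, DSP stood at 45.7 ± 2.69% in Lat-M2, 94.6 ± 1.22% in Lat-M1 and 52.0 ± 2.64% in PA (mean ± SD; n = 2, 2 and 3). Lat-M1 was above the other groups by this ratio, and both Lat-M2 libraries were below every PA library.

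**Figure D2:**
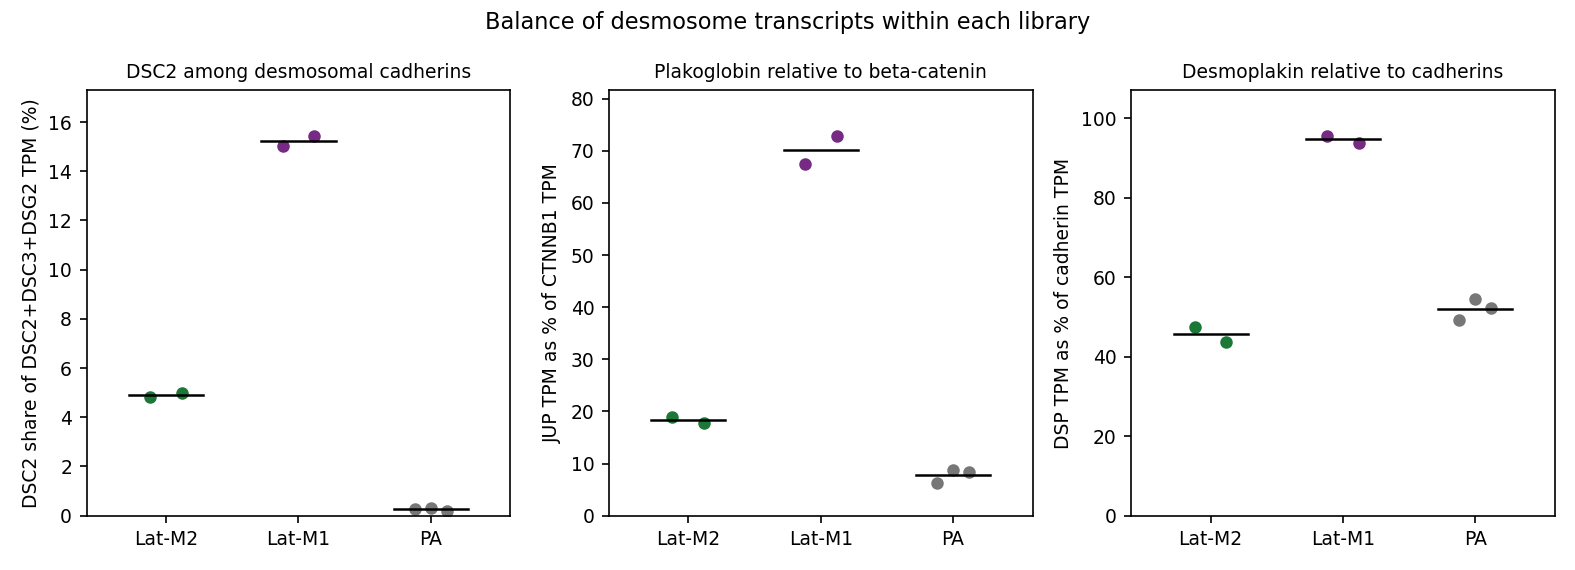
Share of DSC2 in the desmosomal cadherin TPM, JUP as a percentage of CTNNB1, and DSP as a percentage of desmosomal cadherin TPM, in each library (points; lines are group means; n = 2, 2 and 3). In all 3 panels Lat-M1 is highest, and Lat-M2 lies between Lat-M1 and PA in the first and second panels only.

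The plakophilins, arm-repeat proteins that widen and stabilise the plaque, behaved differently from each other. PKP3, found in most desmosomes of simple epithelia, stood at 14.8 and 14.6 TPM in Lat-M2, 12.2 and 12.9 TPM in Lat-M1, and 6.30, 8.64 and 7.63 TPM in PA. It was the only tested member with its highest mean in Lat-M2 apart from PKP4. PKP2, the main plakophilin of the heart, was low, at 2.03 and 1.71 TPM in Lat-M2, 2.08 and 2.24 TPM in Lat-M1, and 0.914, 0.889 and 1.27 TPM in PA. The Lat-M libraries lay above PA for both genes.

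PKP4, a relative found in adherens junctions as well as desmosomes, differed little between the groups. It stood at 63.2 and 55.004 TPM in Lat-M2, 52.1 and 53.7 TPM in Lat-M1, and 53.2, 53.5 and 55.3 TPM in PA, and these ranges overlap for Lat-M2 and PA. It was still the major plakophilin transcript, with 78.1 ± 1.31% of the plakophilin TPM in Lat-M2, 78.2 ± 0.325% in Lat-M1 and 86.4 ± 1.60% in PA (mean ± SD; n = 2, 2 and 3). PKP1 was listed at 0.0317 and 0.0164 TPM in Lat-M2 and at 0 in all Lat-M1 and PA libraries. PERP stood at 80.3 and 70.3 TPM in Lat-M2, 109.9 and 112 TPM in Lat-M1, and 75.2, 71.7 and 71.7 TPM in PA. For PERP, Lat-M1 lay above the other libraries, while Lat-M2 and PA overlapped.

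**Figure D3:**
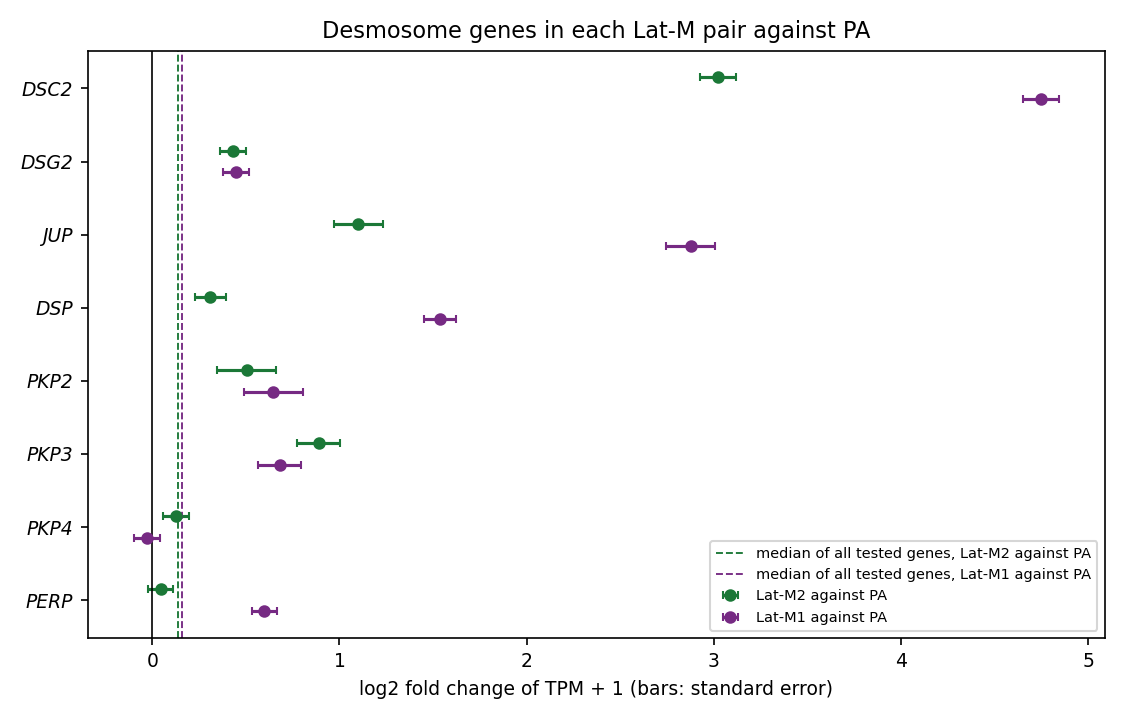
Log2 fold change of TPM + 1 for the 8 tested members in Lat-M2 against PA and in Lat-M1 against PA (points; bars are standard errors from limma, n = 2 against 3). Dashed lines mark the medians of all 16385 tested genes, 0.14 and 0.16. DSC2 and JUP lie farthest to the right in both comparisons, and PKP4 lies at or left of the medians.

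Against PA, 5 of the 8 tested members were past the limma threshold (adjusted p below 0.05 over all tested genes) in Lat-M2, all higher: DSC2, JUP, PKP3, DSG2 and DSP. Of all tested genes 16% were called in that comparison, 13.6% higher and 2.32% lower. In Lat-M1 7 of 8 were called, all higher, where 46% of all tested genes were called, 34% higher and 11.9% lower. PKP4 was the exception there, with a log2 fold change of -0.029 ± 0.070 (SE). The median over the tested members was 0.47 in Lat-M2 against PA and 0.66 in Lat-M1 against PA, beside 0.14 and 0.16 over all tested genes. Since DSC2 in these comparisons led to the choice of the family, these counts and medians are descriptions only.

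TPM are shares of a whole, and 4 structural RNAs (RN7SL1, RN7SL2, RN7SK and RMRP) took 25.3 ± 3.42% of TPM in Lat-M2, 20.2 ± 2.30% in Lat-M1 and 30.5 ± 1.17% in PA (mean ± SD; n = 2, 2 and 3). With libraries brought to a common scale through the median of their gene ratios (called scaling here), DSC2 still differed by 2.94 in Lat-M2 against PA and 4.63 in Lat-M1 against PA on the log2 scale, and JUP by 0.95 and 2.70. Scaling ended the call of DSP in Lat-M2 against PA (log2 fold change 0.16) and called PKP4 lower in Lat-M1 against PA (-0.21). The count of called members became 4 in Lat-M2 against PA, where 16.5% of tested genes were then called (7.78% higher, 8.7% lower), and 8 in Lat-M1 against PA, of which 7 were higher, where 48% of tested genes were called (24.5% higher, 23.6% lower).

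The family was not chosen by the comparison of Lat-M2 with Lat-M1, in which 4 of the 8 tested members were called lower in Lat-M2. This comparison does use the Lat-M values of DSC2 that led to the choice, so its result for DSC2 is a description. JUP fell by 1.78 ± 0.14 on the log2 scale (SE, n = 2 against 2, limma adjusted p = 0.000124), and DSC2 fell by 1.72 ± 0.11. DSP fell by 1.23 ± 0.093 (limma adjusted p = 5.42e-05) and PERP by 0.55 ± 0.075 (limma adjusted p = 0.00102). For each of these genes both Lat-M2 libraries lay below both Lat-M1 libraries. Of all tested genes, 37.1% were called in this comparison, 20.7% lower and 16.4% higher, and 3.3% were called lower by at least 2-fold, as were JUP, DSC2 and DSP. After scaling, the same 4 members were called lower and PKP4 higher, where 45.3% of tested genes were called (23.1% lower, 22.2% higher). The median over the tested members was -0.35 before scaling, beside -0.013 over all tested genes.

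The other 4 tested members were not called between the Lat-M pairs. The log2 difference of Lat-M2 minus Lat-M1 was -0.019 for DSG2 (95% interval -0.19 to 0.16; limma adjusted p = 0.870). For PKP2 it was -0.14 (95% interval -0.54 to 0.26; limma adjusted p = 0.557). For PKP3 it was 0.21 (95% interval -0.085 to 0.50; limma adjusted p = 0.236) and for PKP4 0.15 (95% interval -0.024 to 0.33; limma adjusted p = 0.156). PKP4 was called higher in Lat-M2 after scaling (0.18, limma adjusted p = 0.0104; over all alternatives 0.00509 to 0.482).

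The partners of desmosomes were taken from lists of related genes. Of 5 plakins and cytolinkers, which tie filaments to junctions, all were tested. PPL, periplakin, stood at 10.6 and 8.997 TPM in Lat-M2, 2.16 and 1.98 TPM in Lat-M1, and 2.81, 3.58 and 3.47 TPM in PA, the reverse order of the pairs from that of DSP. It was called higher in Lat-M2 than in PA (log2 fold change 1.33 ± 0.12, SE), lower in Lat-M1 than in PA (-0.48 ± 0.12), and higher in Lat-M2 than in Lat-M1 (1.81 ± 0.14, limma adjusted p = 5.08e-05). EVPL, envoplakin, was called higher in Lat-M1 than in PA (0.57 ± 0.17) and so was DST, dystonin (0.33 ± 0.082), and both calls ended on scaling, which called EVPL lower in Lat-M2 than in Lat-M1 (-0.55). PLEC, plectin, and MACF1 were called in none of the 3 comparisons, and scaling called MACF1 lower in Lat-M1 than in PA and higher in Lat-M2 than in Lat-M1. PLEC stood at 55.5 TPM in PA 1 and 85.6 and 83.1 TPM in PA 2 and PA 3.

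Of 12 genes of keratins and vimentin, the filaments that desmosomes anchor, 7 were tested. In Lat-M2 against PA 4 were called higher and none lower, in Lat-M1 against PA 2 were called higher and 2 lower, and in Lat-M2 against Lat-M1 5 were called higher and 1 lower. After scaling these counts were 4 and 1, 1 and 3, and 5 and 2. Before scaling, 13.6% of all tested genes were called higher and 2.32% lower in Lat-M2 against PA, and 34% and 11.9% in Lat-M1 against PA. In Lat-M2 against Lat-M1 the shares were 16.4% and 20.7%. The 2 of 7 higher in Lat-M1 against PA is thus near the share of all genes. After scaling the shares were 7.78% and 8.7% in Lat-M2 against PA, and 24.5% and 23.6% in Lat-M1 against PA. They were 22.2% and 23.1% in Lat-M2 against Lat-M1. KRT8, the type II keratin of simple epithelia, stood at 206 and 181 TPM in Lat-M2, 88.8 and 95.04 TPM in Lat-M1, and 112, 142 and 130.3 TPM in PA. It was higher in Lat-M2 than in Lat-M1 by 1.06 ± 0.12 on the log2 scale (SE; limma adjusted p = 0.000376). KRT80 and KRT7 were also higher in Lat-M2 than in Lat-M1, by 0.57 ± 0.086 and 0.61 ± 0.10 (limma adjusted p = 0.00176 and 0.00251). KRT17, a keratin induced in stressed epithelia, was lower in Lat-M2 than in Lat-M1 (log2 difference -1.37 ± 0.20, SE), at 0.543 and 0.601 TPM in Lat-M2, 2.86 and 3.28 TPM in Lat-M1, and at most 0.162 TPM in PA. KRT17 reached the mean of 1 TPM only through Lat-M1, so its call is a description. VIM, the most abundant filament gene of these cells, was called in none of the 3 comparisons and stood between 1981 and 2428 TPM. Scaling called VIM lower in Lat-M2 than in PA (-0.22) and than in Lat-M1 (-0.14).

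Of 14 core genes of the adherens junction, the actin-linked cadherin junction, 11 were tested. In Lat-M2 against PA 3 were called higher and 1 lower, in Lat-M1 against PA 8 higher and 1 lower, and in Lat-M2 against Lat-M1 none higher and 8 lower. After scaling, 1 was called higher and 3 lower in Lat-M2 against PA, 8 higher and 2 lower in Lat-M1 against PA, and 1 higher and 8 lower in Lat-M2 against Lat-M1. The shares of all tested genes were 13.6% higher and 2.32% lower in Lat-M2 against PA (7.78% and 8.7% after scaling). They were 34% higher and 11.9% lower in Lat-M1 against PA (24.5% and 23.6% after scaling). In Lat-M2 against Lat-M1 they were 16.4% higher and 20.7% lower (22.2% and 23.1% after scaling). CDH1, E-cadherin, was at most 0.0165 TPM in any library. CDH2, N-cadherin, was at 275 and 250.4 TPM in Lat-M2, 413 and 430.1 TPM in Lat-M1, and 236, 227 and 235 TPM in PA, and lower in Lat-M2 than in Lat-M1 (-0.68 ± 0.066, SE; limma adjusted p = 0.000209). LIMA1, an actin-binding protein that joins catenins to actin, was at 19.5 and 15.985 TPM in Lat-M2, 75.6 and 79.6 TPM in Lat-M1, and 14.95, 14.4 and 14.8 TPM in PA. It was lower in Lat-M2 than in Lat-M1 (-2.07 ± 0.093, limma adjusted p = 4.22e-06). MLLT4, afadin, and CTNND1, p120-catenin, were lower in Lat-M2 than in Lat-M1 too (-0.77 and -0.53, limma adjusted p = 0.000374 and 0.00276).

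**Figure D4:**
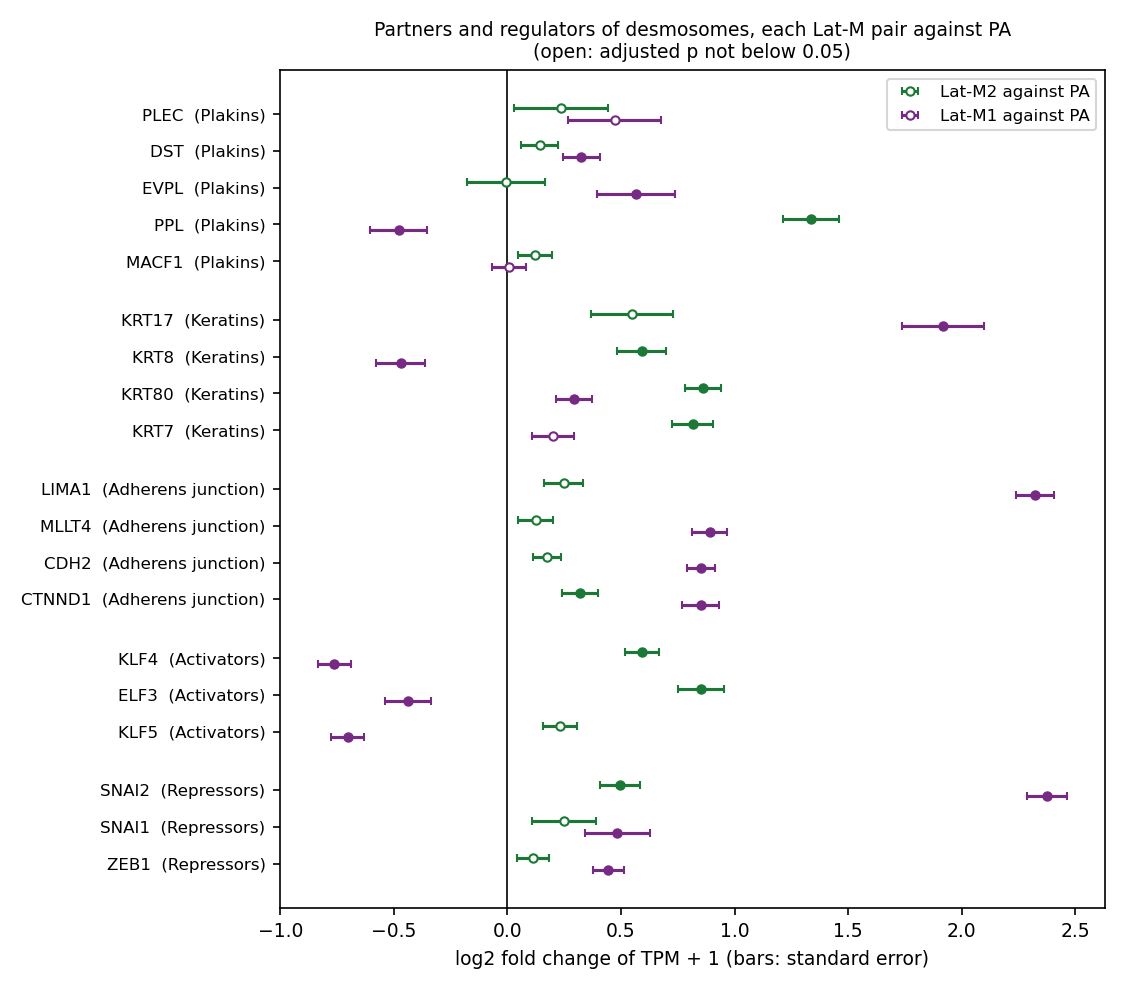
Log2 fold change of TPM + 1 in Lat-M2 against PA and in Lat-M1 against PA for partners and regulators of desmosomes (points; bars are standard errors from limma; filled points have an adjusted p below 0.05). PPL, KRT8, KLF4, ELF3 and KLF5 lie right of 0 in Lat-M2 against PA and left of 0 in Lat-M1 against PA. EVPL lies close to 0, on its left, in Lat-M2 against PA and right of 0 in Lat-M1 against PA. LIMA1, SNAI2 and KRT17 lie far to the right in Lat-M1 against PA.

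Of 12 transcription factors listed as activators of epithelial junction genes, 5 were tested, of which 3 were called lower in Lat-M1 against PA, and 3 higher and none lower in Lat-M2 against Lat-M1. After scaling, 4 were called lower in Lat-M1 against PA and 4 higher in Lat-M2 against Lat-M1. Of all tested genes, 11.9% were called lower in Lat-M1 against PA (23.6% after scaling) and 16.4% higher in Lat-M2 against Lat-M1 (22.2% after scaling). KLF4 stood at 40.0 and 34.3 TPM in Lat-M2, 13.7 and 14.03 TPM in Lat-M1, and 24.4, 24.0 and 24.2 TPM in PA. ELF3 stood at 30.2 and 25.6 TPM in Lat-M2, 10.7 and 10.8 TPM in Lat-M1, and 14.3, 16.8 and 13.9 TPM in PA. Both were called higher in Lat-M2 than in PA and lower in Lat-M1 than in PA, the opposite side from DSC2 in Lat-M1. KLF5 was lower in Lat-M1 than in PA (-0.70 ± 0.074, SE). GRHL2, a grainyhead factor of epithelia, was at most 0.0147 TPM, and TP63 at most 0.118 TPM.

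Of 6 listed repressors of epithelial junction genes, 3 were tested, and all 3 were called higher in Lat-M1 than in PA (2 after scaling), as were 34% of all tested genes (24.5% after scaling). SNAI2, the repressor Slug, stood at 6.30 and 6.73 TPM in Lat-M2, 24.6 and 28.8 TPM in Lat-M1, and 4.28, 4.19 and 4.52 TPM in PA. Its order of groups was that of DSC2 and JUP. SNAI2 was lower in Lat-M2 than in Lat-M1 (-1.88 ± 0.097, SE; limma adjusted p = 8.29e-06), as was ZEB1 (-0.33 ± 0.077, limma adjusted p = 0.0121). SNAI1 was called higher in Lat-M1 than in PA (0.48 ± 0.14), a call that ended on scaling.

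Of 12 enzymes and transport factors listed as acting on desmosomes, 11 were tested, and the differences were small. In Lat-M2 against PA 2 were called higher, in Lat-M1 against PA 8 were called higher (4 higher and 1 lower after scaling), with none lower in either, and in Lat-M2 against Lat-M1 1 was higher and 4 were lower. After scaling, 2 were higher and 1 lower in Lat-M2 against PA, and 2 higher and 4 lower in Lat-M2 against Lat-M1. Of all tested genes, 13.6% were called higher and 2.32% lower in Lat-M2 against PA, and 34% and 11.9% in Lat-M1 against PA. In Lat-M2 against Lat-M1 16.4% were called higher and 20.7% lower. After scaling the shares were 7.78% higher and 8.7% lower in Lat-M2 against PA, and 24.5% and 23.6% in Lat-M1 against PA. They were 22.2% and 23.1% in Lat-M2 against Lat-M1. ADAM17, a sheddase that cuts cadherin ectodomains, was higher in Lat-M1 than in PA (0.53 ± 0.060, SE) and lower in Lat-M2 than in Lat-M1 (-0.40 ± 0.066, limma adjusted p = 0.00246). ADAM15, another sheddase, was higher in Lat-M2 than in Lat-M1 (0.30 ± 0.062, limma adjusted p = 0.00797). MAPK14, the kinase p38 alpha, was lower in Lat-M2 than in Lat-M1 (-0.44 ± 0.068, limma adjusted p = 0.00209), and so was KIF5B, a kinesin heavy chain (-0.28 ± 0.081, limma adjusted p = 0.0293).

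DSC2, DSC3 and DSG2 lie in the desmosomal cadherin cluster of chromosome 18, where RefSeq (GRCh38.p14) places DSC2 at 31058840 to 31102421 and DSG2 at 31498177 to 31549008. The order along the chromosome is DSC3, DSC2, DSC1, DSG1, DSG4, DSG3 and DSG2, with B4GALT6, TRAPPC8, RNF125 and RNF138 beyond. Of the 14 genes around the cluster 6 were tested, DSC2 and DSG2 among them. CDH2, farther off on the same chromosome, had a log2 fold change of 0.17 ± 0.061 in Lat-M2 against PA (SE) and 0.85 ± 0.061 in Lat-M1 against PA. B4GALT6, a galactosyltransferase gene, stood at 8.13 and 8.34 TPM in Lat-M2, 8.48 and 9.62 TPM in Lat-M1, and 6.49, 5.90 and 6.50 TPM in PA. It differed by 0.34 ± 0.085 in Lat-M2 against PA and 0.46 ± 0.085 in Lat-M1 against PA (SE), far less than DSC2. RNF138, a ubiquitin ligase gene named after its values were seen, stood at 68.2 and 60.9 TPM in Lat-M2, 62.4 and 67.6 TPM in Lat-M1, and 50.6, 48.2 and 51.7 TPM in PA, and was called higher than PA in both pairs before and after scaling. TRAPPC8 stood between 35.1 and 42.1 TPM in all libraries. RNF125, named after its values were seen and too low to be tested, was at 0.121 and 0.250 TPM in Lat-M2, 0.579 and 0.647 TPM in Lat-M1, and 0.0273 to 0.0669 TPM in PA.

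Across the 7 libraries, the members most like DSC2 were JUP (Pearson's r of log2(TPM + 1) with DSC2 0.957), PKP2 (0.939) and DSG2 (0.927), followed by DSP (0.888), PKP3 (0.834) and PERP (0.814), while PKP4 was at 0.052. These values describe libraries that fall into 3 groups. Among the 902 tested genes outside the family that ranged over at least 2 log2 units, the 5 highest r were those of FOXS1, a forkhead factor (0.999), GLUL, glutamine synthetase (0.999), PTRF, a caveolar coat protein (0.998), RNU7-195P (0.998) and ELOVL6, a fatty acid elongase (0.998). FOXS1 stood at 8.66 and 8.64 TPM in Lat-M2, 16.002 and 16.2 TPM in Lat-M1, and 2.42, 2.24 and 2.02 TPM in PA, the same order of groups as DSC2 with a higher level in PA. GLUL stood at 14.9 and 13.8 TPM in Lat-M2, 26.9 and 27.6 TPM in Lat-M1, and 5.00, 4.79 and 4.91 TPM in PA. In PA, PTRF was at 0.0268 to 0.279 TPM, ELOVL6 at 0.378 to 0.423 TPM and RNU7-195P at 0 in every library. Like DSC2, PTRF, ELOVL6 and RNU7-195P reached the mean of 1 TPM only through the Lat-M libraries. All 5 genes were picked by their likeness to DSC2, so their r and levels are a description.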

How the data were processed

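The authors deposited TPM per gene in 1 file per library, a unit read from the values: each library sums to 1e+06 and, in genes with a mean under 0.1 TPM, the smallest positive value was lower for longer transcripts (rho -0.940 by Spearman, 7767 genes). TopHat2 2.2.4 and the hg19 build come from the submitters' processing notes; the quantifier and annotation are not given in the sources used here. The labels name several library kits without saying which made which library, so the kit and the groups cannot be told apart.

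For each symbol the entry with the highest mean was kept. The 16385 genes averaging 1 TPM or more were tested on log2(TPM + 1) with limma 3.58.1 (R 4.3.3, trend and robust options) in 1 fit of 3 groups, with Benjamini-Hochberg adjustment over all of them at 0.05. All members are described. From lists of up to 5 genes every gene is named, and from longer lists the 4 called genes with the largest change; genes outside this rule (such as CDH1, CTNNB1, VIM, GRHL2, TP63, TRAPPC8, RNF138 and RNF125) were named after their values were seen, and some listed genes are not reported here. Members and lists were chosen with earlier results of these data known. Upstream sequences and gene positions came from RefSeq, which had a window for 8 of the 10 members. The closing section gives the alternatives.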

Additional observations from a re-analysis of the deposited data

Results flagged for a closer look

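The effects of the 2 Lat-M pairs against PA differed for 4 desmosome genes by a test of the difference itself, Lat-M2 against Lat-M1 in the fit of 3 groups. The log2 difference was -1.72 for DSC2, which is a description since DSC2 led to the choice of the family. It was -1.78 for JUP (limma adjusted p = 0.000124), -1.23 for DSP (limma adjusted p = 5.42e-05) and -0.55 for PERP (limma adjusted p = 0.00102). In each case both Lat-M2 libraries were lower than both Lat-M1 libraries, and all 4 calls held without any 1 of the 7 libraries and after scaling by the median ratio.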

How the results depend on the processing

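The differences between Lat-M2 and Lat-M1 in JUP, DSP and PERP kept their direction and their call under every alternative run. So did that of DSC2, which is a description since DSC2 led to the choice of the family. The DSP call in Lat-M2 against PA was lost after scaling, without structural RNAs, with no filter, without the trend and robust options, with the replicate block, and in all leave-one-out fits but that without Lat-M2 replicate 2. The PKP2 call in Lat-M1 against PA was lost without Lat-M1 replicate 2. Calls were gained too: PKP2 in Lat-M2 against PA without the trend and robust options (0.50), PKP4 in Lat-M2 against PA without Lat-M2 replicate 2 (0.22, against 0.026 without Lat-M2 replicate 1), PKP4 as lower in Lat-M1 against PA after scaling (-0.21) and without structural RNAs (-0.23), and PKP4 in Lat-M2 against Lat-M1 after scaling (0.18), without structural RNAs (0.25) and without Lat-M2 replicate 2 (0.25). The count of called members ranged over single libraries left out between 4 and 6 in Lat-M2 against PA, 6 and 7 in Lat-M1 against PA, and 4 and 5 in Lat-M2 against Lat-M1.

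Uncalled values changed sign. PKP4 in Lat-M2 against PA was -0.026 after scaling. PERP in Lat-M2 against PA was -0.11 after scaling, -0.060 without structural RNAs and, without 1 library, between -0.050 (Lat-M2 replicate 1) and 0.14 (Lat-M2 replicate 2). DSG2 in Lat-M2 against Lat-M1 was 0.0070 after scaling, 0.076 without structural RNAs and, without 1 library, between -0.099 (Lat-M2 replicate 1) and 0.062 (Lat-M2 replicate 2), with 0.010 without Lat-M1 replicate 2. The cause was not tested.

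Of all genes, 2615 were called in Lat-M2 against PA (2235 higher, 380 lower), 7529 in Lat-M1 against PA (5577 and 1952) and 6072 in Lat-M2 against Lat-M1 (2688 and 3384). After scaling, the counts were 2700 (1274 and 1426), 7868 (4009 and 3859) and 7423 (3632 and 3791). With no filter, 1614 were called in Lat-M2 against PA. Without 1 library the count ranged between 553 (without Lat-M2 replicate 1) and 3305 (without Lat-M2 replicate 2) in Lat-M2 against PA, between 4848 (without Lat-M1 replicate 2) and 7967 in Lat-M1 against PA, and between 3981 (without Lat-M1 replicate 2) and 5979 in Lat-M2 against Lat-M1. A lone library left in a group was taken to vary like the others. Deviations from the group means had r of -0.0798 to 0.0274 over the 6 pairs of libraries with the same last number. In a group of 2 the deviations mirror each other, so these pairs are not independent. These values cannot decide whether the numbers pair the libraries. With the number as a replicate block, 1342 genes were called in Lat-M2 against PA, with 4 desmosome members. Depth is unknown for all libraries.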
